A study of Drosophila melanogaster with 15 samples.

Results

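Small heat shock proteins and constitutive Hsp70 relatives (Hsc70 proteins) are molecular chaperones, and the transcript levels of 5 of their genes were followed through the first stages of Drosophila melanogaster embryogenesis. The genes were Hsp26, Hsp27, Hsc70-3, Hsc70-4 and Hsc70-5. They were taken as every probe set whose only gene symbol in the platform annotation was one of these names, which gave 5 of the 10844 genes that have a probe set to themselves, or 6 of the 13966 probe sets tested, since Hsc70-3 has a second one. By the RefSeq gene table of assembly Release 6 plus ISO1 MT, Hsp26 and Hsp27 lie on chromosome arm 3L, Hsc70-3 on X, Hsc70-4 on 3R and Hsc70-5 on 2R. A further 2 probe sets name Hsc70-4 together with the gene Acbp3 and were not used.

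Small heat shock proteins bind unfolding proteins without using ATP and keep them from clumping. Hsp70 proteins bind and release short stretches of unfolded protein in cycles driven by ATP, with J proteins that deliver clients and exchange factors that restart the cycle. In flies, Hsp26 and Hsp27 are known for strong expression in the ovary without any heat shock, so that the egg receives their RNA from the mother, while the Hsc70 genes serve unstressed cells in separate compartments.

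Embryos were sampled at 5 stages with 3 expression arrays each. Stage T0 held embryos before nuclear cycle 9 and before pole cells form, when the RNA in the egg comes from the mother. T1 is the slow phase of cellularisation and T2 its fast phase, when plasma membrane grows in around the nuclei of the blastoderm. Germ band elongation starts at T3 and ends at T4 by the sample labels, while the series text speaks of gastrulation in its place. Strains given at every stage are yellow white and Oregon R, as the parents of T0 and T1 embryos and as the embryos themselves for T2 to T4, with no treatment added. Eggs were laid at 25°C over 30 min windows, embryos aged at room temperature were picked by hand under oil, and RNA of whole embryos was used. The labels do not say whether the 3 arrays of a stage came from separate collections, so the spread that enters the p-values is that of these arrays and may be technical. Array numbers in the labels are 2, 3 and 4 for T0, 1, 3 and 4 for T2, and 1, 2 and 3 for the other stages, and values are given in that order.

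Values are linear signals scaled so that the trimmed mean of every array is 100, and a change is therefore relative to the average signal of the array. A signal of 21.96, the 95th percentile of negative-control probe sets, was used as the negative-control level, and an array had from 39.0% to 49.7% of its signals under this level. Arrays of 1 stage correlated at 0.925 to 0.964 and arrays of different stages at 0.749 to 0.949 over all probe sets. The maternal transcripts osk and bcd had their highest stage mean at T0, nullo, slam, Z600 and Sry-alpha at T1, and the segmentation genes en and gsb at T4. Stages were compared with limma on log2(signal + 7.3), a scale that understates the change of dim genes. A gene counts as called, or as having risen or fallen, where the Benjamini-Hochberg adjusted p over all tested probe sets was under 0.05 and the log2 fold change reached 1 in size. Log2 fold changes are given ± SE, and signals of a stage as the mean ± SD of its 3 arrays.

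Hsp26, Hsp27 and Hsc70-5 fell between T0 and T1, and Hsc70-3 and Hsc70-4 were not called. At T1 Hsp26 stood at 1.08%, Hsp27 at 7.27% and Hsc70-5 at 4.90% of the mean signal each had at T0, with the T1 signals of Hsc70-5 below the negative-control level. After T1 Hsc70-5 rose again and stood at 41.5% of its T0 mean at T4, where Hsp26 was at 0.727% and Hsp27 at 4.53%. The 3 genes that fell were 3 of 5, beside 15% of all tested probe sets called lower at T1 against T0, and no gene of the 5 was called higher, beside 7.82% of all. In RNA of whole embryos, loss of a transcript from part of the embryo and less of it throughout cannot be told apart.

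**Figure D1:**
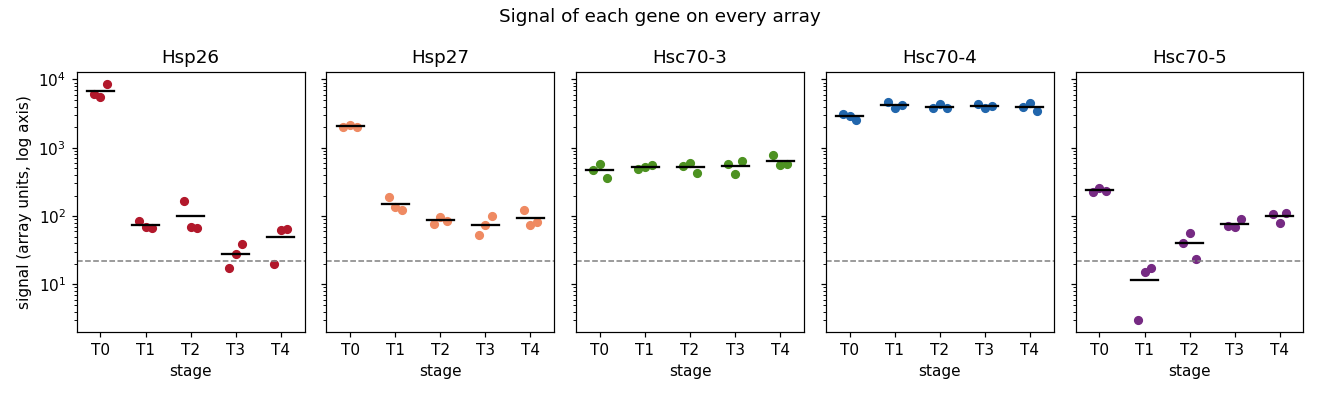
Signal of Hsp26, Hsp27, Hsc70-3, Hsc70-4 and Hsc70-5 on each of the 15 arrays, by stage from T0 to T4 on a log axis, with a bar for the mean of the 3 arrays and a dashed line at the negative-control level of 21.96. Hsp26 and Hsp27 lie below all their T0 arrays from T1 on, Hsc70-5 drops under the dashed line at T1 and then lies above it on all 9 later arrays, and the other 2 genes read 358.9 or more on every array.

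Hsp26, a small heat shock protein of the cytosol, had signals of 6051.5, 5555.6 and 8681.9 at T0. At T1 its signals were 83.5, 68.1 and 67.0. Every T1 array lay below every T0 array. Arrays that do not overlap in this direction, whatever the size of the gap, were found for 21.3% of all tested probe sets. The mean was 72.9 ± 9.23 at T1 against 6763 ± 1680 at T0 (SD, n = 3 each). By mean signal T1 was 92.8-fold lower than T0, with a log2 fold change of -6.38 ± 0.41 (SE, 95% interval -7.26 to -5.50, limma adjusted p = 3.9e-08). It was number 5 from the bottom among the 13966 log2 fold changes of this comparison, and number 2 from the bottom in T3 against T0.

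Hsp26 stayed low afterwards. Its signals were 166.0, 68.8 and 67.8 at T2, where the first array stood above the other 2. At T3 they were 17.2, 27.5 and 38.8, and at T4 they were 19.7, 63.5 and 64.3. One array at T3 and 1 at T4 lay at or below the negative-control level, so the residue at these stages was close to what the arrays can measure. Every T3 array was below every T2 array, as in 8.46% of all tested probe sets, and the log2 fold change of -1.55 ± 0.41 (SE) did not pass the test (limma adjusted p = 0.076). In T3 against T1, where 6.39% of all probe sets were called lower, Hsp26 was called with a log2 fold change of -1.23 ± 0.41 (limma adjusted p = 0.046). It was 1 of 2 genes called there, and the count dropped to 1 without T1 array 1, T1 array 2, T3 array 1 or T3 array 2. At T4 against T0, with 12.3% of all probe sets called lower, Hsp26 was 138-fold lower by mean signal (log2 fold change -7.01 ± 0.41, limma adjusted p = 1.4e-08). Ordered by mean signal the stages ran T0, T2, T1, T4 and T3, and no neighbours after T0 in that order passed the test.

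Hsp27, a small heat shock protein that is found largely in nuclei, had signals of 1982.4, 2148.9 and 2034.2 at T0. At T1 it had 187.1, 137.7 and 123.3. The T0 arrays agreed closely and none overlapped those of T1. The mean was 149 ± 33.5 at T1 against 2055 ± 85.2 at T0 (SD, n = 3 each), 13.8-fold lower, with a log2 fold change of -3.74 ± 0.25 (SE, 95% interval -4.27 to -3.21, limma adjusted p = 5.3e-08).

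Hsp27 signals then lay at 77.4, 97.1 and 84.5 at T2, 52.8, 73.1 and 99.7 at T3, and 122.8, 74.9 and 81.7 at T4. All 9 of these values were above the negative-control level and under the lowest T1 array, which 122.8 came close to. Arrays lower than all of T1 were found for 11% of all probe sets at T2, 13.7% at T3 and 14.8% at T4. The T2 against T1 log2 fold change of -0.73 ± 0.25 was smaller than 1 in size and had a limma adjusted p of 0.072. For T3 against T1 the log2 fold change was -0.94 ± 0.25 with an adjusted p of 0.013, also under the size asked for. By T4 the gene was 22.1-fold lower than at T0 by mean signal (log2 fold change -4.39 ± 0.25, limma adjusted p = 1e-08). The arrays of T2, T3 and T4 overlapped.

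Hsp26 and Hsp27 differ in the percent of their own T0 signal that was left. In signal itself the T2 mean was 101 for Hsp26 and 86.3 for Hsp27. Hsp27 had the higher mean signal at T1, T3 and T4. At T2 the percent of the T0 mean was 1.49% for Hsp26 and 4.20% for Hsp27, and at T3 it was 0.412% and 3.66%. Their percent ranges over arrays did not overlap at any stage from T1 to T4, and the difference between the 2 genes was not tested. Across the 15 arrays their log2 signals had a Pearson r of 0.959, a description that rests on the gap between the 3 T0 arrays and the 12 others.

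**Figure D2:**
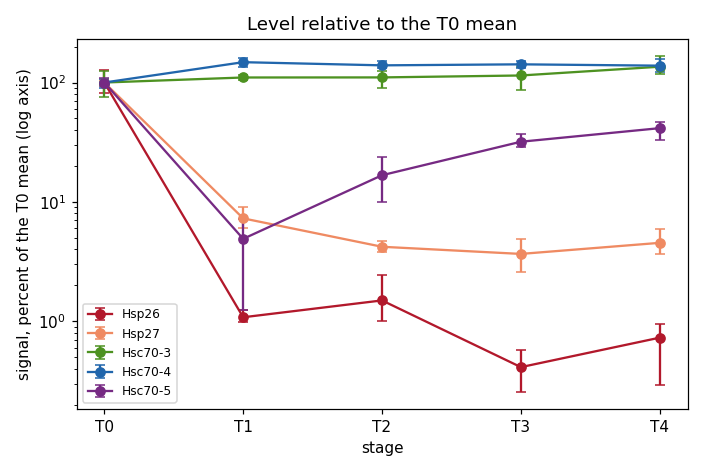
Mean signal at each stage as a percent of the gene's own T0 mean, on a log axis, with bars from the lowest to the highest of the 3 arrays. Hsp26 ends at 0.727%, Hsp27 at 4.53%, Hsc70-5 at 41.5%, Hsc70-3 at 136% and Hsc70-4 at 138% of the T0 mean at T4.

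Both genes belong to the small heat shock gene cluster of cytological region 67B. In the RefSeq order of protein-coding genes, Hsp67Ba and Hsp23 lie between Hsp26 and Hsp27, CG4461 is the neighbour of Hsp26 on the other side, and CG4080 follows Hsp27. Of the genes from Hsp67Bc to CG4080 only CG4461, also of the small heat shock family, and CG4080 had a probe set of their own besides the pair described. CG4461 had mean signals of 43.9, 61.1, 72.9, 67.5 and 74.5 from T0 to T4. Those of CG4080 were 184, 129, 205, 167 and 155. Neither has a T0 mean far above its later ones, and CG4461 was not called in any comparison. The other small heat shock genes of the cluster, Hsp22, Hsp23, Hsp67Ba and Hsp67Bc, were not analysed here.

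Hsc70-4, the main cytosolic Hsc70 of the fly, which also strips clathrin from coated vesicles, had signals of 3101.0, 2926.1 and 2594.6 at T0. At T1 it had 4613.1, 3858.0 and 4296.9. Every T1 array was above every T0 array, as in 22.6% of all tested probe sets. The T1 mean of 4256 ± 379 was 148% of the T0 mean of 2874 ± 257 (SD, n = 3 each). The log2 fold change of 0.57 ± 0.17 (SE, 95% interval 0.20 to 0.93) had a limma adjusted p of 0.02 and was below the size asked for a call.

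This difference depends on how the arrays are scaled. Centring the arrays on cytoplasmic ribosomal protein genes put the Hsc70-4 log2 fold change at -0.17, and centring on the hybridisation controls put it at 0.02. The same centrings moved the median of all probe sets, which was 0.08 as deposited, to -0.66 and -0.47. Centring shifts all probe sets of an array alike, so Hsc70-4 necessarily stayed 0.49 above that median in each of these settings. After quantile normalization, which can change this distance, Hsc70-4 was 0.01 above the median.

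No later step of Hsc70-4 was called. Signals were 3812.8, 4327.1 and 3870.6 at T2, 4376.4, 3804.1 and 4067.7 at T3, and 3894.8, 4540.2 and 3502.3 at T4. The ranges of T1, T2, T3 and T4 overlapped one another. The intervals of the 3 successive differences after T1 lay between -0.46 and 0.40 on the log2 scale. T4 against T0 gave 0.46 ± 0.17 with a limma adjusted p of 0.052, or -0.22 when centred on ribosomal proteins.

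Hsc70-3, the Hsp70 of the endoplasmic reticulum known as BiP, had signals of 475.3, 588.1 and 358.9 at T0. They were 493.0, 521.0 and 553.3 at T1 and 547.4, 593.4 and 428.9 at T2. The ranges of these stages overlapped. At T3 the signals were 576.5, 407.7 and 645.0, and at T4 they were 795.8, 557.4 and 576.5. The stage means were 474 ± 115, 522 ± 30.2, 523 ± 84.9, 543 ± 122 and 643 ± 132 for T0 to T4 (SD, n = 3 each), and no pair of stages passed the test. T4 against T0 gave a log2 fold change of 0.44 ± 0.24 (95% interval -0.08 to 0.96, limma adjusted p = 0.19), and T1 against T0 gave 0.16 ± 0.24 (95% interval -0.35 to 0.68, adjusted p = 0.72). In the deposited scaling, a log2 change of 1 between neighbouring stages lies outside all 4 intervals. Centring on ribosomal proteins put T1 against T0 at -0.57, for which no interval is given here.

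These values come from the brighter of 2 Hsc70-3 probe sets, whose name ends in the suffix that Affymetrix gives to sets whose probes can match several related sequences. The other Hsc70-3 probe set read between 0.6 and 4.3 on all arrays, below the negative-control level everywhere, and gave no measurable level. The Hsc70-3 values thus rest on 1 probe set, and whether related transcripts add to its signal was not tested.

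Hsc70-5, the Hsp70 of the mitochondrial matrix known in mammals as mortalin, had signals of 224.8, 259.9 and 236.4 at T0. At T1 they were 3.0, 15 and 17.3. The 3 T1 arrays were all below the negative-control level, while all 3 T0 arrays were above it. T1 was at least 10.9-fold lower than T0, taken against that level, with a measured mean of 11.8 ± 7.68 against 240 ± 17.9 (SD, n = 3 each). The log2 fold change was -3.80 ± 0.32 (SE, limma adjusted p = 6.3e-07).

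The gene then returned. At T2 its signals were 40, 56.6 and 23.9, every one above the T1 arrays, as in 18.1% of all probe sets. T2 was at least 1.72-fold higher than T1, with a log2 fold change of 1.35 ± 0.32 (limma adjusted p = 0.012), and 5.39% of all tested probe sets were called higher in this comparison. Hsc70-5 was 1 of the 5 genes called there and no gene of the 5 was called lower, beside 4.25% of all. Without the first T1 array, which had the lowest signal, the log2 fold change was 0.96 with an adjusted p of 0.049, and without the second T2 array, which had the highest, it was 1.11 with an adjusted p of 0.055. The call was lost in both.

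At T3 Hsc70-5 had 71.3, 69.5 and 89.2, and at T4 it had 107.5, 79.0 and 112.4. Every T3 array was above every T2 array, as in 9.47% of all probe sets. The step from T2 to T3 had a log2 fold change of 0.88 ± 0.32 and did not pass the test (limma adjusted p = 0.23). Longer spans did. T3 was at least 3.47-fold higher than T1 (log2 fold change 2.23 ± 0.32, adjusted p = 1.7e-04), where 9.24% of all probe sets were called higher. T4 was at least 4.48-fold higher than T1 (2.57 ± 0.32, adjusted p = 3.7e-05), beside 12.6% of all. T4 against T2 gave 1.22 ± 0.32 (adjusted p = 0.025), beside 4.77% of all, a call that was lost without T2 array 1, T2 array 4, T4 array 1 or T4 array 3 (0 of 5 genes called).

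Hsc70-5 did not regain its first level by T4. The T4 mean of 99.6 ± 18.0 was 2.41-fold lower than the T0 mean (log2 fold change -1.22 ± 0.32, limma adjusted p = 0.0091). In order of mean signal the stages ran T0, T4, T3, T2 and T1, and of the neighbours in that order T4 and T0, and T2 and T1, were called. T3 and T2 did not overlap but were not called, and T4 and T3 overlapped.

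**Figure D3:**
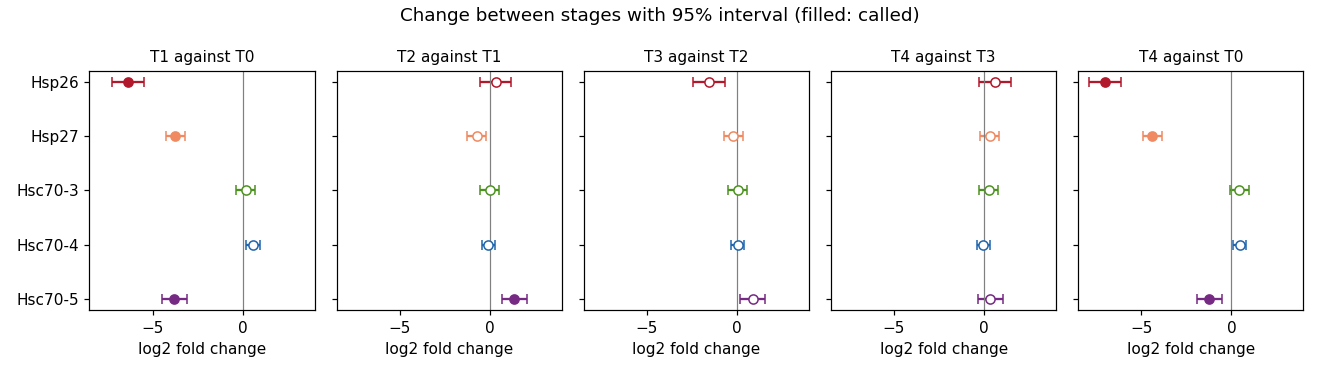
Log2 fold change (x axis) with its 95% interval for each gene in the 4 successive comparisons and in T4 against T0, filled where the change was called. The filled points are Hsp26, Hsp27 and Hsc70-5 at T1 against T0 and at T4 against T0, and Hsc70-5 at T2 against T1.

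Neither of the 2 last successive steps brought a call. In T3 against T2 none of the 5 genes was called by limma, with 2 at an unadjusted p under 0.05 and 1.44% of all probe sets called. In T4 against T3 none was called, with 0 at an unadjusted p under 0.05 and 1.07% of all called. Over the 4 successive comparisons together the moderated F test passed Hsp27 (adjusted p = 1.4e-08), Hsp26 (2.2e-08) and Hsc70-5 (4.3e-06), that is 3 of 5 genes, beside 44.1% of all probe sets. Hsc70-4 had an F test adjusted p of 0.074 and Hsc70-3 of 0.61. Against T0, the same 3 genes were called lower at T2, where 14.6% of all probe sets were, and at T3, where 13.3% were.

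For each gene the 3 genes with the most similar log2 signals over the 15 arrays were looked up among 7247 candidates, as a description that is dominated by the change after T0. Closest to Hsp26 were zpg, which encodes a gap junction protein of germ cells (r = 0.990), the fatty acid binding protein gene fabp (0.983) and the cytochrome P450 gene Cyp6a19 (0.982). The zpg means were 1402, 56.5, 59.5, 25.3 and 46.6 from T0 to T4, highest at T0 as for Hsp26. Closest to Hsp27 were Taldo, which encodes transaldolase of the pentose phosphate pathway (0.987), the epoxide hydrolase gene Jheh2 (0.980) and the esterase gene alpha-Est3 (0.979).

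The genes most like Hsc70-5, each with its lowest mean at T1, were prel, which encodes a protein of mitochondria (r = 0.983), the transcriptional coactivator gene mbf1 (0.978) and Rpt5, which encodes an ATPase of the proteasome cap (0.976). The prel means were 415, 24.1, 86.5, 129 and 149 from T0 to T4, and the Rpt5 means were 858, 238, 378, 529 and 638. Closest to Hsc70-4 were the splicing factor gene Spx (0.954), Srrm234 (0.940) and Xe7 (0.930), and Spx had means of 182, 341, 353, 350 and 344. For Hsc70-3 the highest values were lower, with 0.812 for Acbp4, 0.803 for CG7903 and 0.793 for CG14431. Between the genes themselves, r was 0.578 for Hsp26 and Hsc70-5, 0.402 for Hsc70-3 and Hsc70-4, and -0.854 for Hsp26 and Hsc70-4.

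The other chaperone genes were described from 7 lists that together held 82 genes besides the 5, of which 61 had a probe set of their own. At T1 against T0, 25 of the 61 (41.0%) were called lower and 5 higher, and their median log2 fold change was -0.22 against 0.08 over all probe sets. Lower calls were made for 9 of 14 genes in the list of Hsp60, Hsp10 and chaperonin CCT genes, 6 of 10 in that of Hsp90 and its cochaperones, 6 of 19 J proteins and exchange factors, 2 of 5 Hsp70 and Hsp110 genes, 1 of 8 ER folding genes, 0 of 4 small heat shock genes and the 1 regulator, and the lists were not tested against each other. At T4 against T0, 24 of the 61 (39.3%) were lower and 3 higher, with a median of -0.55 against 0.19 over all probe sets. Over all probe sets, 15% and 12.3% were called lower in these comparisons, and 7.82% and 11.9% higher. These shares include many dim probe sets, for which a fall could hardly be seen. From 39.0% to 49.7% of an array's signals were under the negative-control level. Of the 61 genes, 8 had every stage mean at or below it.

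**Figure D4:**
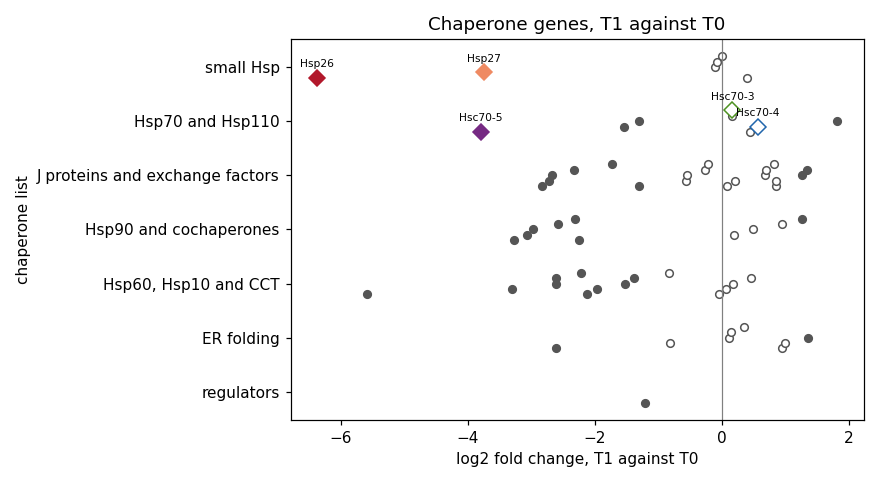
Log2 fold change at T1 against T0 (x axis) of each measured chaperone gene by list, filled where called, with diamonds for Hsp26, Hsp27, Hsc70-3, Hsc70-4 and Hsc70-5 and circles for the other 61 genes. Hsp26 at -6.38 lies furthest to the left, followed by Hsp60A at -5.58, while none of the 4 other small Hsp genes is filled.

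Of the 4 other measured small heat shock genes, limma called none at T1 against T0, and 0 had an unadjusted p under 0.05. The lens crystallin relative l(2)efl had means of 49.4 ± 18.0, 48.5 ± 11.1, 51.2 ± 19.9, 54.8 ± 11.4 and 77.3 ± 8.05 from T0 to T4 (SD, n = 3 each). One of the 4, CG7409, was below the negative-control level on every array. Another, CG13133, had a T0 mean of 19.5 ± 6.63, with 2 of 3 T0 arrays at or below that level. A fall from T0 could hardly be seen for either gene. The T0 means of l(2)efl and CG4461 were 49.4 and 43.9. A fall large enough to be called would have taken these 2 genes to about the negative-control level or below it.

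Among the other Hsp70 and Hsp110 genes, 2 of 5 were called lower and 1 higher at T1 against T0. Hsp110, a nucleotide exchange factor for cytosolic Hsp70, had 61.5 ± 8.60 at T1 against 192 ± 12.9 at T0 (log2 fold change -1.54, adjusted p = 2.4e-05) and stayed low. Grp170, its relative in the endoplasmic reticulum, had 61.2 ± 9.65 at T1 against 164 ± 36.2 at T0 (-1.31, adjusted p = 0.0011) and had 161 ± 36.7 at T4. The stress gene Hsp68 was below the negative-control level on all T0 arrays and at 27.5 to 35.2 at T1, at least 1.40-fold higher (adjusted p = 0.0074). The stress-inducible Hsp70 genes proper were not analysed here. Hsc70-1 and Hsc70-2 were below the negative-control level on nearly all arrays.

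A few genes with products that work beside Hsc70-5 in mitochondria were picked after their values had been seen, so that their shared direction is no result. Hsp60A, the mitochondrial chaperonin, had 49.5 ± 28.5 at T1 against 2477 ± 197 at T0 (SD, n = 3 each), a log2 fold change of -5.58 ± 0.58 (adjusted p = 4.1e-06), and was at 52.3 ± 32.8 at T4, where 1 of 3 arrays was at or below the negative-control level. CG11267, a relative of the co-chaperonin Hsp10, had 420 ± 30.7 at T1 against 1662 ± 165 at T0 and 369 ± 35.7 at T4. Roe1, a GrpE-type exchange factor for mitochondrial Hsp70, had 109 ± 17.2 at T1 against 584 ± 128 at T0 and 136 ± 30.4 at T4. These 3 genes were called lower at T1 against T0 and at T4 against T0. Their relatives Hsp60B, Hsp60C, Hsp60D and CG9920 were not called at T1 against T0, and were at or below the negative-control level on all T0 and T1 arrays. Trap1, the mitochondrial Hsp90, was called lower at T1 and had means of 355, 68.8, 156, 227 and 316 from T0 to T4 with a call higher at T2 against T1 (log2 fold change 1.10 ± 0.26, adjusted p = 0.01).

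In the list of J proteins and exchange factors, 6 of 19 genes were called lower and 2 higher at T1 against T0. DnaJ-1, the Hsp40 partner of cytosolic Hsp70, had 215 ± 43.5 at T1 against 724 ± 124 at T0 (adjusted p = 2.8e-05). Sil1 and P58IPK, an exchange factor and a J protein that act on BiP, had 17.8 ± 7.52 and 32.3 ± 3.08 at T1 against 166 ± 16.6 and 255 ± 12.5 at T0. Both were called lower, with log2 fold changes of -2.83 and -2.73, although for Sil1 only 1 of the 3 T1 arrays was above the negative-control level. Whether these genes differ from Hsc70-3, which was not called, was not tested. Csp, the J protein of synaptic vesicles, and mrj were the genes called higher, and Csp had 249 ± 51.8 at T1 against 92.1 ± 1.65 at T0. The brightest J protein gene, Droj2, had 1464 ± 117 at T1 against 2149 ± 123 at T0 and was not called because its log2 fold change of -0.55 was too small.

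Among Hsp90 and its cochaperones, Stip1, which links Hsp70 to Hsp90, had 205 ± 38.0 at T1 against 1244 ± 23.9 at T0 (log2 fold change -2.57, adjusted p = 1.3e-07). The immunophilin gene Fkbp59 had 35.2 ± 6.94 at T1 against 401 ± 32.0 at T0. The myosin chaperone gene unc-45 was below the negative-control level on all T1 arrays, at least 6.30-fold lower than T0, and rose at least 2.39-fold at T2. Gp93, the Hsp90 of the endoplasmic reticulum, was called higher, with 1354 ± 83.6 at T1 against 573 ± 140 at T0 (1.25, adjusted p = 6.3e-04). The kinase cochaperone gene Cdc37 had 569 ± 165 at T1 against 487 ± 67.5 at T0 and was not called. Hsp83, the cytosolic Hsp90 itself, was not analysed here.

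Of the 8 CCT genes, which encode the subunits of the cytosolic chaperonin that folds actin and tubulin, 7 were called lower at T1 against T0. CCT8 had 67.1 ± 2.78 at T1 against 725 ± 24.6 at T0 (log2 fold change -3.30 ± 0.17, adjusted p = 4.2e-09) and rose again at T2 (1.07 ± 0.17, adjusted p = 6.3e-04). CCT2 had 464 ± 103 at T1 against 2882 ± 661 at T0. The exception was CCT3, with 207 ± 21.7 at T1 against 373 ± 16.9 at T0 and a log2 fold change of -0.83 ± 0.22 (adjusted p = 0.0086).

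Among the 8 ER folding genes measured beside Hsc70-3, 1 was called lower and 1 higher at T1 against T0, with a median of 0.25. Ero1L, the oxidase that supplies disulphide bonds, had 27.7 ± 7.53 at T1 against 204 ± 38.7 at T0 (log2 fold change -2.60, adjusted p = 3.3e-06), with 2 of 3 T1 arrays above the negative-control level. CaBP1, a disulphide isomerase, had 715 ± 118 at T1 against 276 ± 44.2 at T0 (1.35, adjusted p = 1.3e-04) and 1118 ± 155 at T4. Pdi and ERp60, also disulphide isomerases, had log2 fold changes of 0.95 and 0.99 with adjusted p of 3.3e-04 and 0.001, just under the size asked for. As for Hsc70-4, higher calls in these lists depend on the scaling, since 1 of the 61 genes in place of 5 was called higher at T1 against T0 when arrays were centred on the hybridisation controls. Hsf, which encodes the transcription factor of the heat shock response, had 134 ± 25.2 at T1 against 316 ± 24.9 at T0 (-1.21 ± 0.19, adjusted p = 1.9e-04) and stayed between 129 and 147 at the later stages.

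At T2 against T1, Trap1, Stip1, unc-45 and CCT8 were called higher and Sec63, CG2790, STUB1 and PEK lower, that is 4 of the 61 (6.56%) in each direction beside 5.39% higher and 4.25% lower over all probe sets. At T3 against T2 only STUB1, which encodes the ubiquitin ligase that works with Hsp70, was called, with 24.3 ± 13.9 at T3 against 106 ± 14.2 at T2, 1 of 3 T3 arrays being at or below the negative-control level. That is 1 of 61 beside 1.44% of all probe sets. At T4 against T3 limma called none of the 61, with 6 at an unadjusted p under 0.05. Over the longer spans, 9 of the 61 (14.8%) were called higher and 6 (9.84%) lower at T3 against T1, beside 9.24% and 6.39% of all probe sets. At T4 against T1, 10 (16.4%) were called higher and 8 (13.1%) lower, beside 12.6% and 7.58% of all.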

How the data were processed

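RNA of whole embryos was hybridised to Affymetrix Drosophila arrays, 15 in all, 3 for each of 5 stages, with group and number taken from the sample titles. Each array has 1 deposited intensity per probe set, a linear signal. The submitters' processing notes name MAS5, whose version is not given in the sources used here. The 2% trimmed mean, averaged over the arrays and rounded to a whole number, was 100 in the deposited table. Control probe sets (44 of 14010) were left out of the tests. Of the 13966 tested, 12443 had 1 gene symbol in the platform annotation, 327 several and 1196 none. The brightest probe set on average stood for a gene with more than 1.

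Stage means of log2(signal + 7.3) were fitted to all arrays together with limma 3.58.1 (lmFit and eBayes, statmod 1.5.0, R 4.3.3), which gave 13.6 degrees of freedom in the median. The pseudocount of 7.3 is the lower quartile of the signals, as a median of the arrays' values. P-values were Benjamini-Hochberg adjusted over all tested probe sets within each of 10 stage comparisons, which share arrays. A fold marked "at least" sets the brighter stage's geometric mean against the negative-control level. The pipeline was tested on simulated data. The number of arrays limits the precision. Named genes were the 5 genes and the 3 most alike by Pearson r to each. In each chaperone list the rule took up to 4 called genes per direction and comparison with the 2 brightest uncalled ones. Not all genes that this list rule gave are named in the text. Hsp60A, CG11267 and Roe1 fall under it but were set beside Hsc70-5 after their values were seen. Other named genes (DnaJ-1, CG4080, CG7409, CG13133, Trap1, Hsp60B, Hsp60C, Hsp60D and those of the later steps) were chosen after their values were seen. The genes, lists and tests were chosen with earlier results of these data known. No sequence table was used, so a planned search of promoters for motifs was not run. Same-numbered arrays of different stages deviated together little, with correlations between -0.04 and 0.08 over 23 pairs and a median of 0.019. Pairs with different numbers had -0.10 to 0.05 over 67 pairs and a median of -0.007. The numbers were therefore not taken as pairs, and results with the number as a block are given below.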

Additional observations from a re-analysis of the deposited data

How the results depend on the processing

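For the 5 genes, 389 of 427 results recomputed under another setting kept their direction and their side of the threshold. The falls of Hsp26, Hsp27 and Hsc70-5 at T1 against T0 passed the test in all 17 settings tried for each, with log2 fold changes from -7.11 to -6.03 for Hsp26, -4.47 to -3.56 for Hsp27 and -4.53 to -2.72 for Hsc70-5. Centring arrays on ribosomal proteins gave Hsc70-4 -0.17 and Hsc70-3 -0.57 at T1 against T0, -0.22 and -0.24 at T4 against T0, and Hsc70-4 0.0014 at T4 against T3. Centring on hybridisation controls gave Hsc70-3 -0.38 at T1 against T0, 0.13 at T2 against T1 and -0.052 at T3 against T2, and Hsc70-4 0.050, -0.064 and 0.030 at T2 against T1, T3 against T2 and T4 against T3. Quantile normalization gave Hsc70-3 -0.038 at T1 against T0 and 0.068 at T2 against T1, and Hsc70-4 -0.038 at T4 against T0. The dim second Hsc70-3 probe set gave -0.086 at T1 against T0. With the replicate number as a block, Hsc70-3 gave -0.015, 0.082 and -0.051 at T1 against T0, T2 against T1 and T3 against T2, Hsc70-4 gave -0.023 at T3 against T2, 1 of the 5 genes was called at T3 against T1 and 0 at T4 against T2, and the block called 112 probe sets at T3 against T2. None of these values of Hsc70-3 and Hsc70-4 passed the test.

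Hsc70-5 at T2 against T1 was not called when centred on the array median (1.11, adjusted p = 0.054), with a pseudocount of 29.6 (0.74), or with only the 2 stages fitted (1.35, adjusted p = 0.10). Its fall at T4 against T0 had an adjusted p of 0.065 with a pseudocount of 1 (-1.28). Hsp26 at T3 against T2 passed the test without the dimmest 40% of probe sets (-1.55, adjusted p = 0.043) and with an intensity trend and robust settings (adjusted p = 0.019), among adjusted p from 0.019 to 0.24 in all settings. At T3 against T1, 1 of the 5 genes was called in place of 2 with array weights or a pseudocount of 29.6. At T4 against T1, 2 were called in place of 1 when centred on the array median. At T4 against T2, 0 were called in place of 1 after quantile normalization, centred on the array median or hybridisation controls, with a pseudocount of 1 or 29.6, or with only the 2 stages fitted. The cause of these changes was not tested.

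Of the other chaperone genes, 10, 0 and 1 were called higher at T1 against T0, in place of 5, when arrays were centred on the array median, ribosomal proteins and hybridisation controls. At T2 against T1, in place of 4, there were 2 after quantile normalization and 1 each when centred on the array median or ribosomal proteins or with a pseudocount of 29.6. At T4 against T0, 1 was called higher in place of 3 when centred on ribosomal proteins, and at T3 against T2 0 were called lower in place of 1 with only the 2 stages fitted. Over all probe sets, 201 were called at T3 against T2 and 35 when centred on hybridisation controls, 131 with a pseudocount of 29.6 and 123 with a pseudocount of 1. At T4 against T3 the counts were 150 and 37 with hybridisation controls, and at T2 against T1 1347 and 783 with a pseudocount of 29.6.

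Leaving out each array in turn gave ranges of -0.019 to 0.33 for Hsc70-3 at T1 against T0, -0.11 to 0.13 at T2 against T1 and -0.095 to 0.23 at T3 against T2. They were -0.023 to 0.085 for Hsc70-4 at T3 against T2 and -0.14 to 0.045 at T4 against T3, 0.96 to 1.63 for Hsc70-5 at T2 against T1, and -0.079 to 0.52 for Hsp26 at T2 against T1. The count of the 5 genes called ran from 1 to 3 at T3 against T1, with 1 without T1 array 1 or 2 or T3 array 1 or 2, and from 0 to 1 at T4 against T2, with 0 without T2 array 1 or 4 or T4 array 1 or 3. Other chaperone genes called higher ran from 0 to 1 at T3 against T2, with 1 without T2 array 3, and from 3 to 5 at T4 against T0, with 5 without T4 array 1 or 2.

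Signals near the negative-control level limit what can be said of Hsp26 at T3 and T4 and of Hsc70-5 at T1. The scaling of each array to a common mean leaves changes in total RNA unmeasured. Stage and any batch of array processing cannot be told apart, because the labels name no batch.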
